A study of Homo sapiens with 4 samples.

Results

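The short arm of chromosome 9 was described through 59 genes taken in order from KANK1, near the telomere, to ACO1, of 17490 genes listed in at least 1 library. The members were chosen from results of these same libraries, so their ratio in HCC827 is the quantity that selected them and is given as a description. Messenger RNA came from 2 established human lung adenocarcinoma lines with activating EGFR mutations. HCC827 cells were either sensitive or resistant to gefitinib, a reversible inhibitor of the EGFR tyrosine kinase, and H1975 cells were either sensitive or resistant to osimertinib, an irreversible one. Each of the 4 groups had 1 library, so nothing could be set against the spread between replicates and no test was made. The labels used here do not say how the resistant cells were derived or whether drug was present at harvest.

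The band 9p21 holds CDKN2A, which encodes p16INK4a, an inhibitor of the kinases CDK4 and CDK6 that keeps the retinoblastoma protein active, and, from a separate first exon, p14ARF, which restrains the ubiquitin ligase MDM2. Its neighbour CDKN2B encodes the related inhibitor p15INK4b, and MTAP encodes the enzyme that recycles methylthioadenosine to methionine. The band is known in lung adenocarcinoma as a frequent site of gene loss. Nearer the telomere, 9p24 holds the kinase JAK2 and the genes of both PD-1 ligands, CD274 and PDCD1LG2.

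Values are FPKM for levels, the authors' values per length of transcript and per sequencing depth, and log2 ratios of normalised counts, resistant over sensitive, for differences. Square brackets hold the exact 95% interval of a ratio or count, which reflects counting error alone. A gene was considered where at least 1 library of the pair had 1 FPKM and 20 counts, and was called higher or lower at a ratio of 2-fold with an interval excluding 0. A library at 0 was set to 3 counts, which makes such a ratio a bound. Folds given as "at least" rest on that setting. They are not limits of the 95% interval, which allows smaller folds. The libraries held 10934558 (sensitive) and 11034837 (resistant) expected counts in HCC827 and 22145163 and 22217897 in H1975. In these bulk samples fewer cells with a transcript and less transcript per cell cannot be told apart.

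In gefitinib-resistant HCC827 cells, transcripts of 9p were low along almost the whole ordered stretch, and those from MLLT3 to C9orf72 were nearly absent. The 15 members from MLLT3 to C9orf72 together had 7776 counts [7604, 7951] in sensitive cells and 71 counts [55.5, 89.6] in resistant cells, so that 0.871% of their normalised counts remained. The 42 members from KANK1 to ACER2 together had 33523 counts in sensitive and 13613 in resistant cells, and 38.7% remained. Both sets were delimited after the values were seen. CDKN2A gave 3759 of the 7776 counts and RPS6 18114 of the 33523, so both shares lean on abundant members. The median log2 ratio was −6.28 over the 13 considered members of the first set and −1.31 over the 36 of the second. ACO1, the last member and the gene of cytosolic aconitase, had 20.1 FPKM in sensitive cells and 22.2 FPKM in resistant cells (ratio 0.09 [−0.05, 0.23]), and 27.8 and 44.0 FPKM in H1975 (0.67). Along the members the ratio went from mostly shallow levels to deep ones between ACER2 and MLLT3, and was about 0 at ACO1. PSIP1 (−6.48) and TTC39B (−3.60) were deeper exceptions before ACER2. Among members the ratio of about 0 at the end of the order rests on ACO1 alone, and RIGI, the next gene and no member, had −1.48. The 51 considered genes of a list centromeric to ACO1, RIGI included, had a median of −0.25. In H1975 the 15 members from MLLT3 to C9orf72 had 6903 counts in sensitive and 6935 in resistant cells, with 101% remaining.

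Of the 59 members, 57 were listed in HCC827 and 50 were considered; 38 of the 50 were lower (76.0%) and 2 were higher, beside 11.0% lower and 7.05% higher of all 11890 genes considered in that line. Since this contrast chose the members, and since a gene that passes only through its high library had to differ, nothing is read from these shares. The median log2 ratio over the 50 members was −1.78 with 5 of them at their bound, and it was −0.0012 over all genes considered. The lower calls comprised 14 of 20 considered members of 9p24 (median −1.22), 11 of 16 in the group from PTPRD to ACER2, which lies in 9p24 to 9p22 (median −1.37), and 13 of 14 of 9p21 (median −6.19). IL33 and LINGO2 had no reads in HCC827, and TEK had none in sensitive and 3 counts in resistant HCC827. HACD4, SPATA6L, PDCD1LG2, FREM1, CCDC171 and ADAMTSL1 were listed but too low to be considered.

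**Figure D1:**
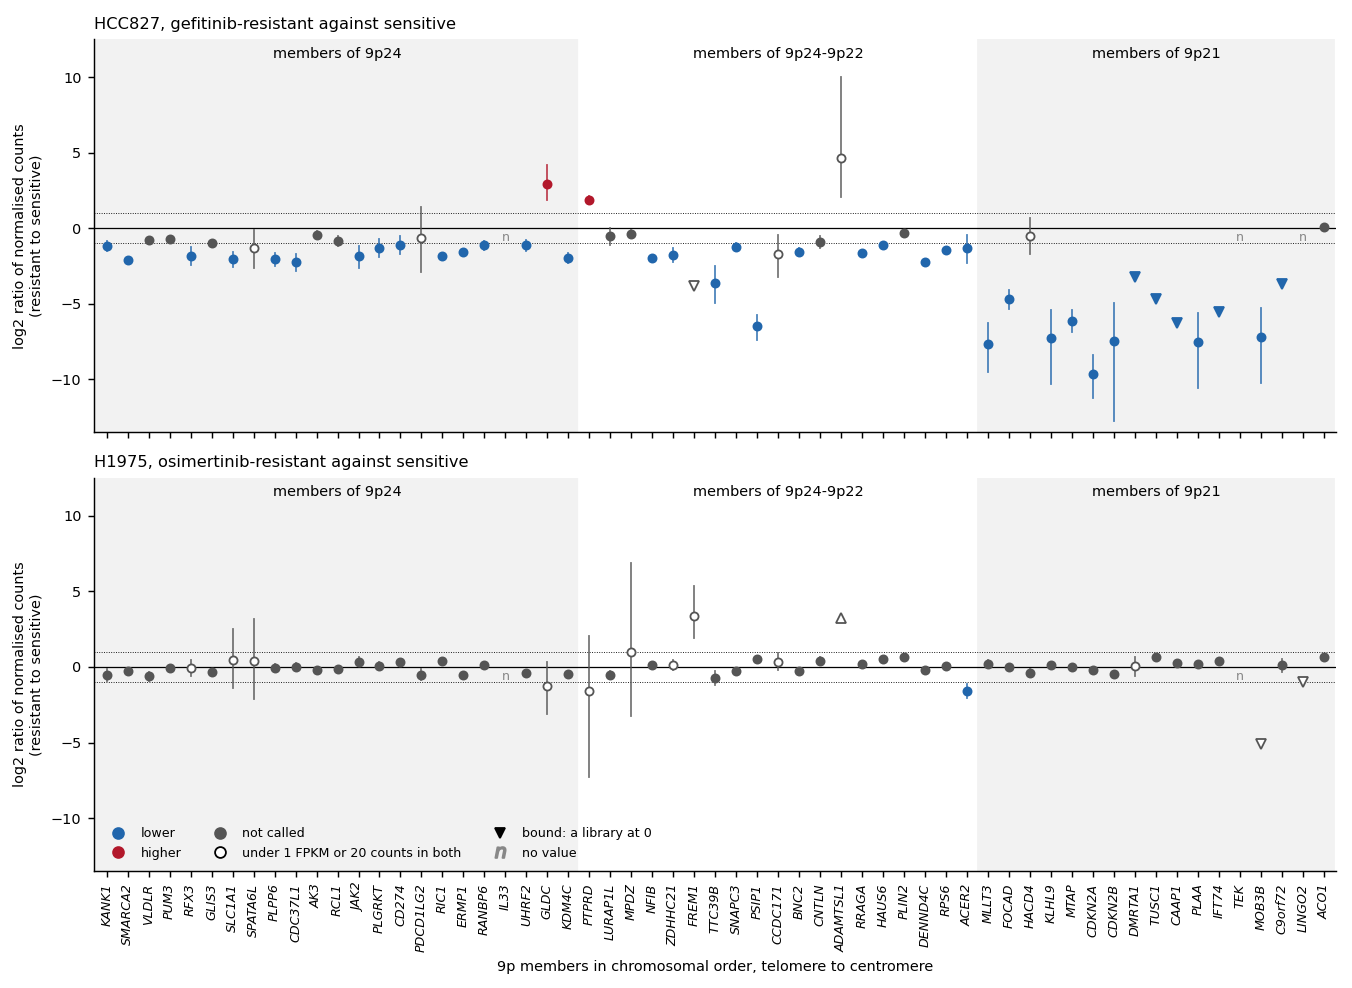
Log2 ratio (resistant over sensitive, normalised counts) for the 59 members in chromosomal order, in HCC827 (top) and H1975 (bottom); vertical lines are 95% counting intervals, triangles are bounds where a library was at 0, dotted lines mark 2-fold, and shading separates the 3 band groups. In HCC827 the members from MLLT3 to C9orf72 lie far below the rest and ACO1 lies at 0.09, whereas in H1975 the filled points (genes considered; open points were too low) stay within 2-fold except ACER2.

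CDKN2A had the lowest ratio of all members in HCC827 and, in sensitive HCC827, the highest level of the 9p21 members. It had 295 FPKM in sensitive HCC827, 0.40 FPKM in resistant HCC827, 28.4 FPKM in sensitive H1975 and 24.3 FPKM in resistant H1975. The resistant HCC827 library was the only one of the 4 in which the transcript was close to absent. Its 3759 counts in the sensitive HCC827 library became 5 (log2 ratio −9.62 [−11.25, −8.40], 788-fold lower), while in H1975 the ratio was −0.21 [−0.37, −0.05]. The files sum p16INK4a and p14ARF transcripts into 1 gene value, so the 2 products cannot be separated. CDKN2B had 3.84, 0.02, 9.02 and 6.46 FPKM with the libraries in the same order, and its 165 counts in sensitive HCC827 became 1 (−7.43 [−12.75, −4.94]). MTAP had 20.5, 0.30, 11.2 and 11.2 FPKM and was 68.7-fold lower in resistant HCC827 (−6.10 [−6.89, −5.42]). DMRTA1, a DMRT family transcription factor gene, had 1.07 FPKM in sensitive HCC827 and was not listed in the resistant library, at least 9.44-fold lower, beside 0.92 and 0.94 FPKM in H1975. CDKN2A, CDKN2B and MTAP were thus low in 1 library alone, whereas DMRTA1 was at about 1 FPKM or less in every library. CDKN2A and CDKN2B are close copies of each other, and their expected counts in sensitive HCC827 were not whole, so the division of reads between them is uncertain.

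The promoter windows of this block are shown because its genes were low together; CDKN2A has 2 of them, the first upstream of the exon used by p14ARF and the second at the start used by p16INK4a. Sequences are from RefSeq (GRCh38.p14), cover 250 bases before to 50 bases after each start, run 5′ to 3′ on the gene's strand, and carry the GC box GGGCGG or its reverse complement CCGCCC in capitals. ACO1 is added as the flanking gene whose transcript was retained.
MTAP, chr9:21802386-21802685, plus strand: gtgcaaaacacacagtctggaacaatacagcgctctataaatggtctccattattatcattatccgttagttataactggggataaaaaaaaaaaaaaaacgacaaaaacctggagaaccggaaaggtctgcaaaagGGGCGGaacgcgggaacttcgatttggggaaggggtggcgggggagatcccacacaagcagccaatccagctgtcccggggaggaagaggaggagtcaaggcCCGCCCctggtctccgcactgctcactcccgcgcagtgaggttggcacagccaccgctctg
CDKN2A, first window, chr9:21995275-21995574, minus strand: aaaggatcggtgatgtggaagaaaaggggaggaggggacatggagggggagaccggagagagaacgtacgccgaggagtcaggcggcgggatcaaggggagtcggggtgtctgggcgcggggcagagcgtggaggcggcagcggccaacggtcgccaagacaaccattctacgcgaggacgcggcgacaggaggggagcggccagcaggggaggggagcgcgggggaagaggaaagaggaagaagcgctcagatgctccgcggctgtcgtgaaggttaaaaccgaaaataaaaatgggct
CDKN2A, second window, chr9:21974808-21975107, minus strand: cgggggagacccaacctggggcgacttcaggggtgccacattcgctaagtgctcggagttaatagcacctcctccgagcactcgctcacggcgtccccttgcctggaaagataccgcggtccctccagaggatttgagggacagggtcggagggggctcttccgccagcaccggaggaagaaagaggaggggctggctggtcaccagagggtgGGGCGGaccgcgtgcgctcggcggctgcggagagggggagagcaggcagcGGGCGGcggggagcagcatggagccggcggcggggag
CDKN2B, chr9:22009256-22009555, minus strand: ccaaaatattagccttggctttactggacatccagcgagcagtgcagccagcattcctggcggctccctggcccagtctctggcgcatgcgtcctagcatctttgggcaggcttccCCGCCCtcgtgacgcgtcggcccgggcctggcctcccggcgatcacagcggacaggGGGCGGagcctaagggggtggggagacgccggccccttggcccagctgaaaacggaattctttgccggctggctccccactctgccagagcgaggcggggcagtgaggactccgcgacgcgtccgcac
DMRTA1, chr9:22446574-22446873, plus strand: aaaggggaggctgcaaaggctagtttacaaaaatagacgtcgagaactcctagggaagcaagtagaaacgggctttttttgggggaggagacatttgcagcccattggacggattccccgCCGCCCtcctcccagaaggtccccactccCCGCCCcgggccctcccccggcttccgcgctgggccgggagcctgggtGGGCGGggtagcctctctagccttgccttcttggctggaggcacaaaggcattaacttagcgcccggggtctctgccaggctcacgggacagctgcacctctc
ACO1, chr9:32384393-32384692, plus strand: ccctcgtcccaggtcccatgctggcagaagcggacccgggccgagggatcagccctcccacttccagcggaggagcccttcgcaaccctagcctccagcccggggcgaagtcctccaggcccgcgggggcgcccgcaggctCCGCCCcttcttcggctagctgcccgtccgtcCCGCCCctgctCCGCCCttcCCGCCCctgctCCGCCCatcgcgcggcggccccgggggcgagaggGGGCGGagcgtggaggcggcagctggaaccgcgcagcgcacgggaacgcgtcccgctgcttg
The GC box occurred 2 times in the MTAP window, 0 times in the first and 2 times in the second CDKN2A window, 2 times in the CDKN2B window, 3 times in the DMRTA1 window and 6 times in the ACO1 window. Promoter windows were found for 55 of the 59 members. From MLLT3 to C9orf72, 14 of 19 windows held a GC box (73.7%), beside 39 of 72 windows of the other members (54.2%). Of all 35116 windows, 45.0% held one. These shares count windows and not genes, and the 19 windows belonged to 14 genes and the 72 to 41. A gene with several windows, such as NFIB, therefore weighs more, and no difference between the groups of genes is read from these shares. CG dinucleotides numbered 15 in the MTAP window, 28 and 26 in those of CDKN2A, 25 in that of CDKN2B, 16 in that of DMRTA1 and 36 in that of ACO1. The median was 14 over all windows, 23 over those from MLLT3 to C9orf72 and 22.5 over those of the other members. Such matches describe the letters of the reference and not binding or methylation in these cells.

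Telomeric to the CDKN2 block, MLLT3, a subunit of transcription elongation complexes, had 10.3 FPKM in sensitive and 0.05 FPKM in resistant HCC827, and 2.15 and 2.48 FPKM in H1975. Its 767 counts became 4 in HCC827, 201-fold lower (−7.65 [−9.53, −6.29]), against 0.22 in H1975. FOCAD, which encodes focadhesin, had 8.19 and 0.34 FPKM in HCC827 (553 and 23 counts, −4.66 [−5.33, −4.06]) and 3.84 and 3.82 FPKM in H1975. The residual level of FOCAD was above that of MLLT3. KLHL9, an adaptor of CUL3 ubiquitin ligases, had 4.56 and 0.03 FPKM in HCC827 (292 and 2 counts, −7.26 [−10.31, −5.39]) and 4.49 and 4.81 FPKM in H1975. HACD4, an enzyme of very long chain fatty acid synthesis, lay between FOCAD and KLHL9 with 16 and 12 counts, under 1 FPKM in both HCC827 libraries (−0.48 [−1.70, 0.69]). In H1975 the same gene had 4.92 and 3.87 FPKM. HACD4 was the single listed member between MLLT3 and C9orf72, TEK apart, whose HCC827 interval included 0. Expected counts of FOCAD, HACD4, KLHL9 and MTAP in resistant HCC827 were not whole, so their residual reads may be shared with other genes.

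Centromeric to the block, 4 members had reads in sensitive HCC827 and none in the resistant library. Their folds set the resistant library to 3 counts. The upper limits of their log2 intervals were −4.36 for TUSC1, −5.97 for CAAP1, −5.22 for IFT74 and −3.32 for C9orf72, which allow smaller folds. TUSC1 had 2.73 FPKM (74 counts) in sensitive HCC827, at least 25.9-fold more than in resistant cells, and 4.86 and 7.58 FPKM in H1975. CAAP1 had 7.07 FPKM (222 counts), at least 77.6-fold more, and 6.58 and 7.84 FPKM in H1975. Both were thus unlisted in 1 library alone. IFT74, a subunit of the intraflagellar transport machinery of cilia, had 5.67 FPKM (133 counts) in sensitive HCC827, at least 46.5-fold more, and 6.49 and 8.07 FPKM in H1975. C9orf72, which acts in autophagy and membrane traffic, had 1.09 FPKM (37 counts), at least 12.9-fold more, and 1.29 and 1.45 FPKM in H1975. PLAA, a ubiquitin-binding protein, kept 2 of 343 counts in HCC827 (6.31 and 0.04 FPKM, −7.49 [−10.54, −5.63]) and had 11.1 and 12.3 FPKM in H1975. These 5 genes had H1975 ratios between 0.12 for C9orf72 and 0.66 for TUSC1. MOB3B, of the MOB family of kinase regulators, differed from them in H1975. It had 3.81 and 0.03 FPKM in HCC827 and 0.70 FPKM and no listing in H1975, that is 275 and 2 counts in HCC827 and 103 and 0 in H1975. MOB3B was therefore low in both resistant libraries, 144-fold in HCC827 and at least 34.1-fold in H1975, although its H1975 level was below the 1 FPKM needed for a call.

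**Figure D2:**
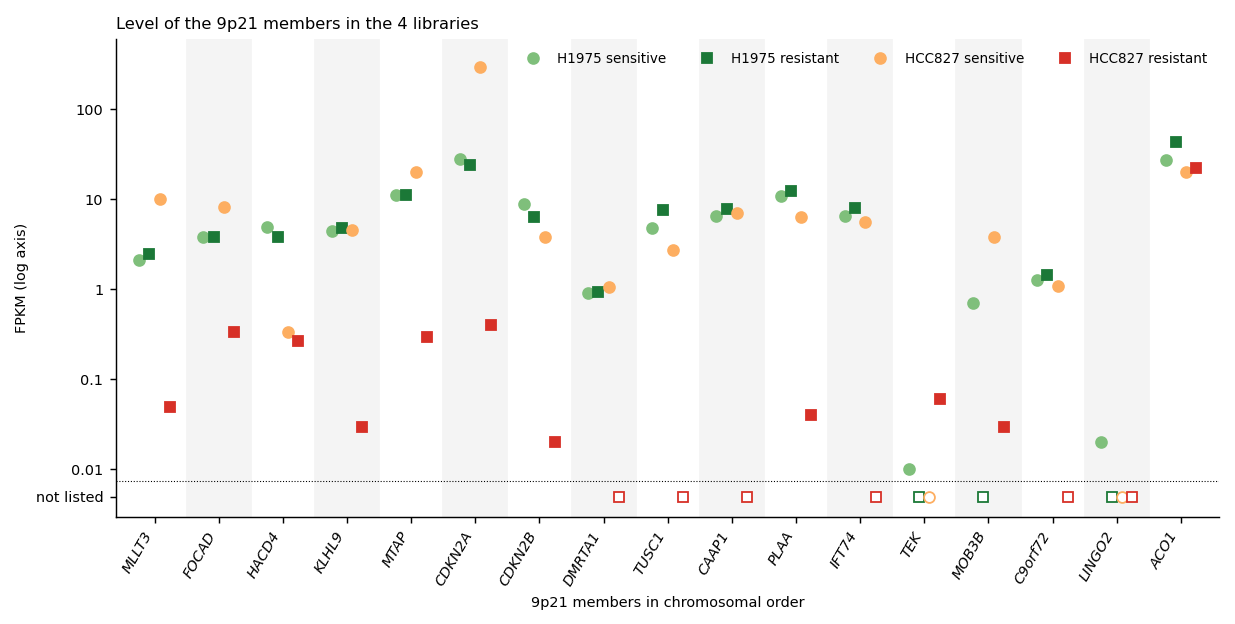
FPKM on a log axis of the 17 members of 9p21 in chromosomal order, 1 point per library; open symbols at the bottom mark genes that a library did not list. Resistant HCC827 is the lowest of the 4 libraries from MLLT3 to C9orf72 except at TEK and at MOB3B, which resistant H1975 did not list, and lies with the others at ACO1.

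Among members from KANK1 to ACER2, PSIP1 stood apart with a ratio as deep as those of 9p21. PSIP1, the chromatin-bound coactivator also known as LEDGF, had 41.7 FPKM in sensitive HCC827, 0.45 FPKM in resistant HCC827, and 26.7 and 39.3 FPKM in sensitive and resistant H1975. Its 1194 counts became 14 in HCC827 (−6.48 [−7.36, −5.73], 89.4-fold lower), all of them whole counts, while its H1975 ratio was 0.56. TTC39B, a tetratricopeptide repeat protein, and FREM1, an extracellular matrix protein, lie just telomeric to SNAPC3 and PSIP1. TTC39B had 2.26 and 0.21 FPKM in HCC827 (12.1-fold lower, 81 and 7 counts, −3.60 [−4.96, −2.49]) and 1.44 and 0.88 FPKM in H1975. FREM1 had 40 counts in sensitive and none in resistant HCC827, at least 14.0-fold lower at a level under 1 FPKM, and 4 and 42 counts in H1975. Their neighbour SNAPC3, a subunit of the complex that activates small nuclear RNA genes, had 10.5 and 4.59 FPKM in HCC827 (2.37-fold lower, −1.25 [−1.53, −0.97]) and 7.59 and 6.30 FPKM in H1975. It was thus much less low than PSIP1 beside it. On the centromeric side CCDC171 had 22 and 7 counts and BNC2, a zinc finger protein, had 3.18 and 1.13 FPKM in HCC827 (−1.54 [−1.80, −1.27]) and 2.87 and 2.40 FPKM in H1975. The deep ratio of PSIP1 thus lay between members of shallower ratio.

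Most other chromatin and transcription members had moderate ratios in HCC827. Of 11 such members, with PSIP1, MLLT3 and DMRTA1 included, 10 were lower and none was higher, and GLIS3, at 1.99-fold lower, missed the call. Over all genes considered in HCC827, 11.0% were lower, and the members were chosen on this contrast. SMARCA2, an ATPase of SWI/SNF chromatin remodelling complexes, had 16.7 and 3.98 FPKM in HCC827 and was 4.34-fold lower (−2.12 [−2.32, −1.92]), beside 9.37 and 8.82 FPKM in H1975. NFIB, a transcription factor of lung development, had 18.9 and 4.96 FPKM in HCC827 (−1.97 [−2.13, −1.83]) and 6.06 and 6.52 FPKM in H1975. In both genes resistant HCC827 was the lowest of the 4 libraries. KDM4C, a histone H3 lysine demethylase, had 6.33 and 1.71 FPKM in HCC827 (3.87-fold lower) and 4.56 and 3.36 FPKM in H1975. RFX3, a factor of cilium genes, had 1.60 and 0.38 FPKM in HCC827 (3.51-fold lower) and 0.63 and 0.43 FPKM in H1975. UHRF2, a ubiquitin ligase that binds modified cytosine, had 5.55 and 2.63 FPKM in HCC827 (2.20-fold lower) and 10.9 and 8.11 FPKM in H1975. None of the 9 considered in H1975 was called there, with ratios between −0.46 and 0.56.

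JAK2 and the PD-1 ligands were scarce in HCC827 at the outset. JAK2 had 1.41 FPKM in sensitive and 0.40 FPKM in resistant HCC827, and 1.57 and 2.01 FPKM in H1975. CD274, the gene of PD-L1, had 3.18 and 1.52 FPKM in HCC827 and 6.41 and 7.57 FPKM in H1975. Both were lower in resistant HCC827, JAK2 by 3.62-fold (76 and 22 counts, −1.86 [−2.61, −1.16]) and CD274 by 2.15-fold (78 and 38 counts, −1.11 [−1.71, −0.53]); on the log2(FPKM + 1) scale, which compresses low levels, neither reached 2-fold. In H1975 both were slightly higher, with ratios of 0.36 and 0.33. PDCD1LG2, the gene of PD-L2, had 0.23 and 0.15 FPKM in HCC827 (6 and 4 counts), too few for a ratio to be read, and 2.81 and 1.92 FPKM in H1975 (−0.52). IL33, the cytokine gene between RANBP6 and UHRF2, had no reads in any library.

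RNA and ribosome members included the most abundant transcript of the set. RPS6, a protein of the small ribosomal subunit, had 2058 FPKM in sensitive and 802 FPKM in resistant HCC827, and 1096 and 1121 FPKM in H1975. The resistant HCC827 library was thus the lowest of the 4, 2.67-fold below its sensitive partner (−1.41 [−1.45, −1.38]) on 18114 and 7125 counts, and the H1975 ratio was 0.05. PUM3, an RNA-binding protein of the nucleolus, and RCL1, a ribosome biogenesis factor, had ratios of −0.73 and −0.83 in HCC827 and were not called. RRAGA, a Rag GTPase that carries amino acid signals to mTORC1, had 46.8 and 15.7 FPKM in HCC827 and 48.0 and 55.7 FPKM in H1975, and was 3.10-fold lower in HCC827.

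Members of metabolism and transport were split. Of 10 considered in HCC827, with MTAP counted here as well, 5 were lower, 1 was higher and 4 were not called. Over all genes considered in HCC827, 11.0% were lower and 7.05% higher, and the members were chosen on this contrast. The glutamate transporter gene SLC1A1 had 4.09 and 1.03 FPKM in HCC827 (4.12-fold lower), beside 0.02 and 0.03 FPKM in H1975. PLPP6, a lipid phosphatase, had 6.73 and 1.70 FPKM in HCC827 (4.12-fold lower) and 3.51 and 3.37 FPKM in H1975. The ceramidase gene ACER2 had 1.15 and 0.48 FPKM in HCC827 and was 2.52-fold lower there. ACER2 was also the only member called in H1975, with 1.55 and 0.71 FPKM there (−1.58 [−2.06, −1.12]), a call that was lost on the log2(FPKM + 1) scale. PLIN2, a coat protein of lipid droplets, had 27.8 and 23.7 FPKM in HCC827 (−0.29 [−0.46, −0.12]) and 92.1 and 145 FPKM in H1975. The mitochondrial kinase AK3 (−0.42) and the lipoprotein receptor VLDLR (−0.79) were not called in HCC827.

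GLDC and PTPRD, separated in the order by KDM4C alone, were the 2 considered members that were higher in resistant HCC827. GLDC, the decarboxylase of the glycine cleavage system, had 0.19 FPKM in sensitive and 1.51 FPKM in resistant HCC827, and 0.14 and 0.06 FPKM in H1975. Its 8 and 64 counts in HCC827 gave a ratio of 2.93 [1.87, 4.20]. PTPRD, a receptor protein tyrosine phosphatase, had 1.44 and 5.60 FPKM in HCC827 and 0.02 and 0.01 FPKM in H1975, and was 3.61-fold higher in resistant HCC827 (1.85 [1.60, 2.11]). ADAMTSL1, a matrix protein, had 1 and 27 counts in HCC827 and 0 and 28 in H1975, under 1 FPKM throughout. The members on either side of GLDC, UHRF2 and KDM4C, were both lower. MPDZ, a scaffold of tight junctions, was not called in HCC827 (−0.36) and had 1 and 2 counts in H1975.

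The remaining members from KANK1 to ACER2 were cytoskeletal, centrosomal, trafficking and chaperone genes. KANK1, the first of the order and a regulator of actin, had 3.99 and 1.87 FPKM in HCC827 (2.24-fold lower) and 1.17 and 0.80 FPKM in H1975 (−0.55). CDC37L1, a co-chaperone of HSP90, had 3.83 and 0.85 FPKM in HCC827 (4.70-fold lower) and 2.86 FPKM in both H1975 libraries. DENND4C, an exchange factor of Rab GTPases, had 13.2 and 2.92 FPKM in HCC827 (4.69-fold lower) and 7.09 and 5.79 FPKM in H1975. These 2 were the furthest from their sensitive level in this group. RIC1, part of an exchange factor of RAB6, had 9.02 and 2.66 FPKM in HCC827 (3.64-fold lower) and 5.23 and 6.49 FPKM in H1975. The palmitoyltransferase gene ZDHHC21 had 1.68 and 0.52 FPKM in HCC827 (3.36-fold lower) and 0.73 and 0.80 FPKM in H1975. ERMP1, an endoplasmic reticulum peptidase, had 14.1 and 5.03 FPKM in HCC827 (2.90-fold lower) and 9.09 and 6.20 FPKM in H1975. ERMP1 was the only gene of these 3 with a lower level in the resistant library of both lines, within 2-fold in H1975. PLGRKT, a plasminogen receptor, had 7.41 and 3.17 FPKM in HCC827 (2.43-fold lower) and 14.5 and 15.0 FPKM in H1975. RANBP6, an importin-like protein, had 6.27 and 3.18 FPKM in HCC827 (2.19-fold lower) and 7.09 and 7.77 FPKM in H1975. HAUS6, a subunit of the spindle complex augmin, had 12.4 and 6.02 FPKM in HCC827 (2.13-fold lower) and 9.88 and 14.1 FPKM in H1975. In each of these 3 genes, resistant HCC827 was the lowest library. CNTLN, a centrosomal protein (−0.90), and LURAP1L (−0.54) were not called. On the log2(FPKM + 1) scale KANK1, RFX3, RANBP6, UHRF2, ZDHHC21, BNC2, HAUS6 and ACER2 also missed 2-fold, with their direction unchanged. Across the 36 considered members from KANK1 to ACER2 the median log2 ratio was −1.31, with the middle of the values between −1.89 and −0.88 (25th and 75th percentile). The intervals of 33 of them lay wholly below 0.

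H1975 differed from this pattern in nearly every member. Of 44 members considered in H1975, ACER2 was lower (2.27%) and none was higher, beside 8.56% lower and 3.21% higher of all 11872 genes considered in that line. The median over the members was 0.0018 and over all genes 0.0014. Of 42 members considered in both lines, 41 stayed within 2-fold in H1975, 41 had a lower ratio in HCC827 than in H1975, and for 37 the HCC827 interval lay wholly below the H1975 interval. The members were chosen by their HCC827 ratios, which favours a lower ratio there, so nothing is read from the comparison of ratios or intervals. With 1 pair per line the difference between lines was not tested, and the intervals reflect counting error alone. Depth differed between the lines, and so did the annotation: 65.8% and 66.1% of genes listed in H1975 included predicted RefSeq transcripts, and none in HCC827 did.

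Genes of 9p that are not members lie among and beside the members. Between KANK1 and ACO1, 3 further genes were considered in HCC827: BRD10 (4.12-fold lower), DMAC1 (3.10-fold lower) and MLANA (−0.62, not called). Telomeric to KANK1, ZNG1A had a ratio of −1.42 and was lower, and WASHC1 had −0.52 and was not called. Of 17 type I interferon genes that lie between FOCAD and C9orf72, only IFNE had reads in HCC827, 2 counts in the sensitive library, so nothing can be said of that cluster. The next gene after ACO1, RIGI, a sensor of viral RNA, had 9.58 and 3.57 FPKM in HCC827 and was 2.79-fold lower, against a ratio of 0.67 in H1975. Of 51 considered genes in a list of 9p21.1 to 9p13 genes centromeric to ACO1, 3 were lower (RIGI, AQP3 and GNE), 2 were higher (RECK and GLIPR2) and 46 were not called, with a median of −0.25. That list leaves out some genes of the stretch, among them ATOSB (−2.37) and PRSS3 (−1.18). Of all 70 genes of 9p after ACO1 considered in HCC827, 7 were lower and 2 higher. Over all genes considered in HCC827, 11.0% were lower and 7.05% higher. Neither set was tested against these shares. In H1975 AQP3 was the 1 gene of the 9p21.1 to 9p13 list called, 2.51-fold lower. Of all 75 genes of 9p after ACO1 considered in H1975, 3 were lower and 1 higher.

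**Figure D3:**
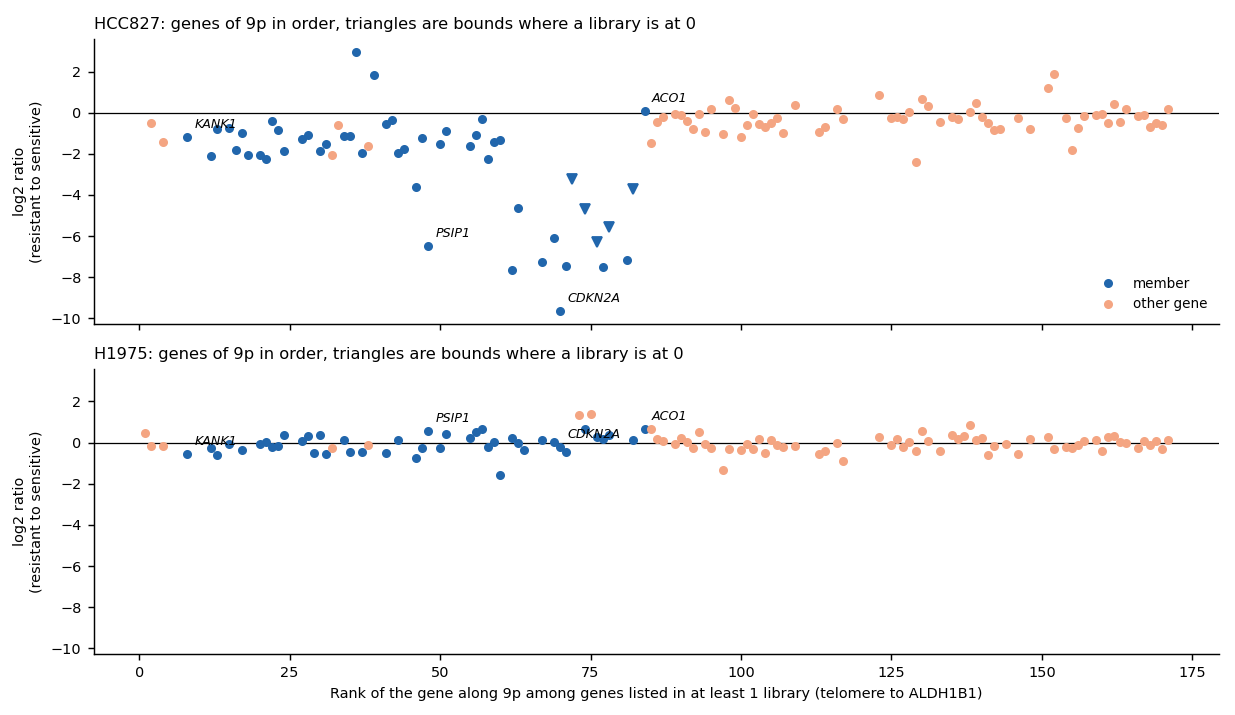
Log2 ratio (resistant over sensitive, normalised counts) for considered genes of 9p by their rank in RefSeq order, from the telomere to ALDH1B1, in HCC827 (top) and H1975 (bottom); blue points are members, orange points other genes, and triangles bounds where a library was at 0. In HCC827 the values fall to their lowest at CDKN2A and the lowest value beyond ACO1 is −2.37, with RIGI at −1.48.

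By chromosome, genes of 9p up to ACO1 had the lowest median in HCC827 (−1.63, 74.5% of considered genes lower), which the choice of members fixes. The other 24 chromosomes and chromosome parts had medians from −0.70 on chromosome X to 0.25 on chromosome 18. The rest of chromosome 9 was also below 0 in HCC827, at −0.31 for 9p after ACO1 and −0.41 for 9q. In H1975 the same 9p genes had a median of −0.01, within the range of the other parts (−0.36 to 0.26). The longest run of neighbouring considered genes that were all lower in HCC827 comprised 16 genes, from DENND4C to C9orf72, and the longest runs off chromosome 9 comprised 7, both on chromosome X. Further runs of 6 on 9p went from JAK2 to BRD10 and from NFIB to BNC2. BRD10 apart, the genes of these 9p runs are members, chosen on this same contrast, so nothing is read from the length of the runs. At 16-fold or more, 141 of 11890 considered genes were lower in HCC827 (1.19%), 12 of them members.

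**Figure D4:**
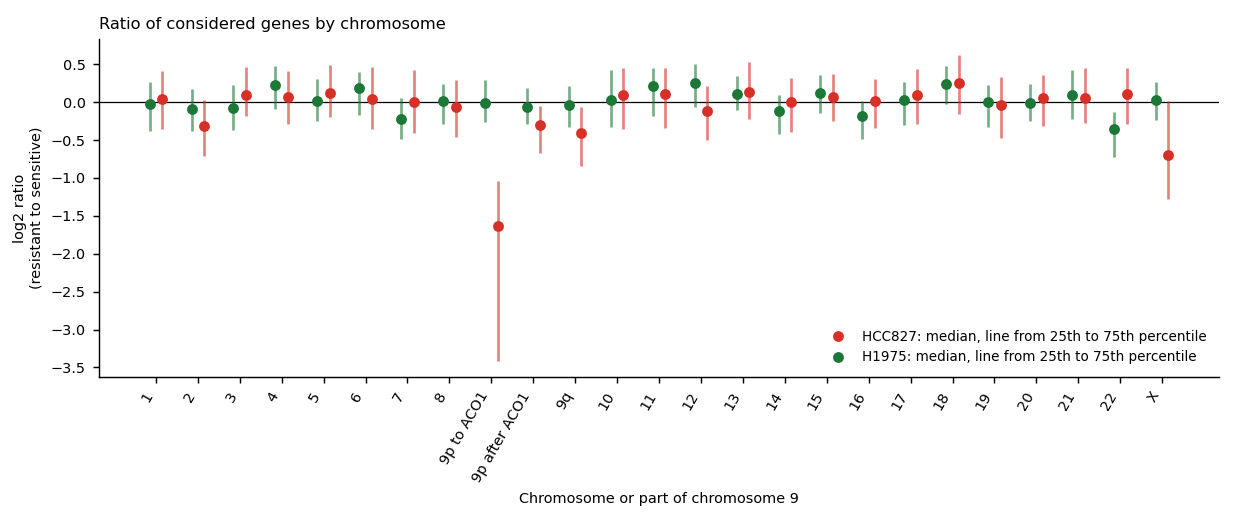
Median log2 ratio (resistant over sensitive, normalised counts) over considered genes of each chromosome, with chromosome 9 in 3 parts; lines run from the 25th to the 75th percentile, red for HCC827 and green for H1975. In HCC827 the part of 9p up to ACO1 sits at −1.63 and chromosome X at −0.70, and in H1975 the parts lie between −0.36 and 0.26.

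Partners of the 9p21 proteins were taken from lists of the RB and MDM2 axis and of methionine salvage. CDK4, the kinase that p16INK4a inhibits, had 1141 FPKM in sensitive and 106 FPKM in resistant HCC827 (11.2-fold lower) and 142 and 154 FPKM in H1975. Of 20 considered genes of that axis, cyclin D1 gene CCND1 (2.33-fold) was the other lower one in HCC827, and CCNE1 (2.34-fold) and BMI1, a repressor of the CDKN2A locus (2.01-fold), were higher. RB1 (0.14) and MDM2 (0.04) were not called. In H1975 CDKN2C, which encodes a relative of p16INK4a, was 3.01-fold, BMI1 2.55-fold, E2F2 2.09-fold and CDK6 2.08-fold higher, and CDKN1A 4.18-fold and CBX7 2.32-fold lower. Of 11 genes of methionine salvage and of partners of MTAP, SRM, the spermidine synthase gene whose reaction yields methylthioadenosine, was 2.30-fold higher in resistant HCC827, none was lower, and none was called in H1975. PRMT5, the arginine methyltransferase inhibited by methylthioadenosine, had a ratio of 0.73 in HCC827 and 0.20 in H1975. Over all genes considered, 11.0% were lower and 7.05% higher in HCC827, and 8.56% lower and 3.21% higher in H1975. The 2 lower of 20 in the RB and MDM2 axis in HCC827 were near that share, and neither list was tested against these shares.

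Of 17 considered genes of JAK-STAT signalling and PD-L1 stability in HCC827, IRF9 (6.03-fold) and STAT6 (2.32-fold) were lower beside JAK2, and SOCS1 (4.60-fold), an inhibitor of JAK kinases, and STAT5A (2.51-fold) were higher. JAK1 (0.21) and TYK2 (0.10), the other widely expressed JAK kinases, were not called. In H1975, STAT5A (3.39-fold) and IFNAR2 (2.68-fold) were higher and none of 18 was lower. The 2 lower of 17 in HCC827 were near the 11.0% lower of all genes considered in that line, beside 7.05% higher. In H1975 the shares over all genes were 8.56% lower and 3.21% higher, and the list was not tested against them.

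The 5 genes closest to CDKN2A in log2(FPKM + 1) over the 4 libraries, among genes with at least 10 FPKM in a library, were PSIP1, FASN, ADGRG1, FAM83A and TSPAN31, at Euclidean distances of 2.88, 3.15, 3.32, 3.34 and 3.41. PSIP1 is the only member among them. TSPAN31 is the neighbour of CDK4 on chromosome 12 and had 67.1 and 5.72 FPKM in sensitive and resistant HCC827.

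Markers of the labelled cell type moved in the same contrasts. In HCC827, 7 of 8 lung adenocarcinoma markers were lower and their summed level was 6161 FPKM in sensitive and 1797 FPKM in resistant cells; NKX2-1 (330-fold), NAPSA (150-fold), EPCAM (7.20-fold) and KRT19 (6.09-fold) were the furthest. In H1975 3 of 6 considered markers were lower, CDH1 (113-fold), KRT19 (69.8-fold) and EPCAM (52.4-fold), and the sums were 1859 and 826 FPKM. Over all genes considered, 11.0% were lower and 7.05% higher in HCC827, and 8.56% lower and 3.21% higher in H1975. The marker lists were not tested against these shares. Blood cell markers summed to 5.07 and 6.42 FPKM in HCC827 and 1.29 and 0.72 FPKM in H1975, with CD3E and MS4A1 at 0 in all libraries. Fibroblast and endothelial markers summed to 2.59 and 5.76 FPKM in HCC827 and 16.5 and 10.6 FPKM in H1975, with CDH5 at 0 in both HCC827 libraries and COL3A1 at 0 in both H1975 libraries. Of this list LUM, a matrix proteoglycan gene, was higher in resistant HCC827 (3 and 66 counts, log2 ratio 4.39), and CDH5, the cadherin gene of endothelium, was 9.35-fold lower in resistant H1975 (94 and 10 counts). Their part in the ratios of the 9p members was not tested.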

How the data were processed

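Messenger RNA libraries of 4 groups, 1 library each, were made from TRIzol extracts, per the labels' protocols. The submitters' processing notes name the aligners Bowtie2 and HISAT2, the quantifier RSEM and the build hg19, without versions. The deposited files give RSEM expected counts, not normalized, and FPKM values per NCBI Gene ID, the latter scaled by the authors. Symbols and gene order came from a RefSeq table (GRCh38.p14); all 59 members matched, and a row absent from a file was taken as 0.

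For each pair the expected counts were rounded, and TMM factors (edgeR 4.0.16) from considered genes were 0.981 and 1.02 in HCC827 and 1.00 and 0.995 in H1975. Ratios used no prior count. Intervals are Clopper-Pearson intervals of the conditional binomial at 95% (SciPy 1.17.1), tested on simulated data, and cover counting error only, since reads were not counted as unique molecules. A library at 0 was set to 3 counts, or to the count that 0.01 FPKM corresponds to where larger. Expected counts were whole, to the 2 decimals of the files, for 55.1% and 55.2% of genes listed in H1975 and 69.5% and 69.8% in HCC827. No test was made, because groups had no replicates.

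Members and lists were chosen with earlier results of these data known. The promoter windows, their motif and the runs of neighbouring genes were chosen after the values were seen. Named with values in all libraries were members called in HCC827, the block around CDKN2A, JAK2 and the PD-1 ligands, and members at the ends of the 3 band groups; other members are given by ratio or count. Of other lists, called genes are named, at most the 4 furthest in each direction. Alternatives were total counts, DESeq2 1.42.0 size factors, other filters, FPKM with pseudocounts of 1 or 0.1, a 1.5-fold call and members with whole counts alone. Some items of the lists are not reported here and are not counted in them.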

Additional observations from a re-analysis of the deposited data

Results flagged for a closer look

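In 11 of 42 members considered in both lines, the resistant library was called lower in HCC827 while the H1975 interval lay above 0. These opposite directions rest on 1 pair per line, and the difference was not tested. The HCC827 and H1975 log2 ratios were −6.48 and 0.56 for PSIP1, −7.49 and 0.18 for PLAA, −6.28 and 0.25 for CAAP1 (a bound in HCC827), −5.54 and 0.38 for IFT74 (a bound) and −4.69 and 0.66 for TUSC1 (a bound). They were −1.86 and 0.36 for JAK2, −1.11 and 0.33 for CD274, −1.86 and 0.39 for RIC1, −1.63 and 0.23 for RRAGA, −1.09 and 0.52 for HAUS6, and −1.41 and 0.05 for RPS6. None of the 11 was called higher in H1975. Opposite directions of this kind, in either sense, occurred in 318 of 10961 genes considered in both lines (2.90%), but the members were chosen by their HCC827 ratios, so nothing is read from the higher share among them. Among 106 other listed genes considered in both lines, 2 showed the same opposition: RIGI (−1.48 and 0.67) and CDK4 (−3.48 and 0.13).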

How the results depend on the processing

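Total-count and DESeq2 scaling left all counts of calls among members and the called direction of each named member as they were. The 5 FPKM filter kept 30 members in HCC827, of which 22 were lower and 1 higher, and log2(FPKM + 1) moved the HCC827 median to −1.06. The single H1975 call, ACER2, became 0 lower under the 5 FPKM filter, on the log2(FPKM + 1) scale and among members with whole counts. Without a filter 2 members were lower and 2 higher in H1975, and at 1.5-fold 3 were lower and 3 higher. On log2(FPKM + 1), 10 named members lost their HCC827 call without changing direction, none of them between MLLT3 and C9orf72. Among members with whole counts, 26 of 36 were lower in HCC827. No paired analysis was possible because each group had 1 library. Depth limits members of 9p21 to bounds where the resistant library had no read.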

Other observations

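Between DMRTA1 and CAAP1, 2 genes that are no members were called higher in resistant H1975. ELAVL2, a neuronal RNA-binding protein gene, had 46 and 117 counts (log2 ratio 1.36). The noncoding gene LINC03106 had 8 and 21 counts (1.40 [0.17, 2.79]). Both were under 1 FPKM in sensitive H1975 and were considered only through the resistant library, so nothing is read from these calls. In HCC827 they had at most 2 counts in a library. IFNB1, the interferon beta gene, which lies between HACD4 and KLHL9, had 1 count in sensitive and 16 counts in resistant H1975, under 1 FPKM in both, and no read in HCC827. These genes were singled out after their values were seen.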
